A study of Mus musculus with 10 samples.

Results

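Bone morphogenetic protein (BMP) signalling was described through 9 genes of J1 mouse embryonic stem cells: the ligands Bmp4 and Bmp8b, the receptor Bmpr1a, the signal-carrying Smad1 and Smad5, the inhibitory Smad6, and the response genes Id1, Id2 and Id3. They were found by name among 28786 gene names on the array and are covered by 15 probes. All 15 were well above background on all 10 arrays, so no gene was lost to the filter on dim probes. The genes were listed with their fold changes against the control in these same arrays known. Their values are therefore given as a description, with no p, and their counts support nothing.

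The cells were transfected with a small interfering RNA (siRNA) against Ino80, Ino80b, Ino80c or Ino80e, or with a non-targeting siRNA (NT), and total RNA was taken 96 hours later (day 4). Each of these 5 groups held 2 biological replicates, per the series' design text, with an Agilent expression array for every sample (10 in all). All groups share the J1 line, the transfection and the time point, and no second cell line was used. Ino80 encodes the ATPase of INO80, a complex that moves nucleosomes, and the other 3 targets encode further subunits of it.

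A BMP ligand binds a pair of receptor types at the cell surface, and the type I receptor (such as Bmpr1a) then phosphorylates Smad1 and Smad5, which enter the nucleus with Smad4. Id1, Id2 and Id3 are classical direct targets of these Smads, and their proteins bind and block E proteins, which are transcription factors of the basic helix-loop-helix class. In mouse embryonic stem cells, BMP4 acts with leukaemia inhibitory factor to hold the cells undifferentiated, and Id genes are a known part of that action.

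Levels are log2 processed signals minus the 75th percentile of the array, so a level of 0 is the signal that 75% of probes stay at or below. The level of a probe says nothing about another probe. A gene is represented by its brightest probe, and the other probes of the 9 genes are given beside it. Fold changes are differences between group means of these levels, with the standard error of a limma fit over all 10 arrays (n = 2 per group). The median of all genes was itself above NT in each knockdown, by a log2 difference of 0.16 after Ino80 siRNA, 0.13 after Ino80b siRNA, 0.26 after Ino80c siRNA and 0.19 after Ino80e siRNA, and the fold changes carry that shift.

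Both NT arrays lie on a slide of their own, Ino80 and Ino80b share the second slide, and Ino80c and Ino80e share the third. In each comparison with NT the slide and the siRNA cannot be told apart. The comparisons of Ino80 with Ino80b and of Ino80c with Ino80e lie within a slide. By its brightest probe, the targeted gene was lower in its own knockdown. The log2 fold changes were -1.20 ± 0.13 for Ino80, -2.0 ± 0.34 for Ino80b, -2.34 ± 0.15 for Ino80c and -1.21 ± 0.28 for Ino80e. The first 3 passed at an adjusted p under 0.05 (limma, 0.0042, 0.027 and 0.00999), and Ino80e did not (adjusted p = 0.0834). The other Ino80 probes gave -0.92 and -0.47 after Ino80 siRNA, 0.30 and 0.96 after Ino80b siRNA, and -0.80 and 0.08 after Ino80e siRNA. The brightest Ino80 probe gave 0.32 after Ino80b siRNA and -0.02 after Ino80e siRNA. The second Ino80c probe gave -1.63 ± 0.21 after Ino80c siRNA. Ino80b RNA also stood below NT after Ino80c siRNA (-1.11 ± 0.34, adjusted p = 0.0887) and after Ino80e siRNA (-1.39 ± 0.34, adjusted p = 0.089), without passing. Each array detected 66.4% to 79.0% of its probes well above background, and replicate arrays correlated across genes, which are not independent replicates, with r from 0.987 (NT) to 0.993 (Ino80b).

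The promoters of the ligands and of Id2 and Id3 are shown because these genes carry the ligand and target ends of the pathway. They are RefSeq windows of GRCm38.p6, from 250 bases before to 50 bases after the annotated start, read 5′ to 3′ on the strand of the gene. They lie at chr14:46390620-46390919 (Bmp4, minus strand), chr4:123104911-123105210 (Bmp8b, plus), chr12:25096043-25096342 (Id2, minus) and chr4:136143572-136143871 (Id3, plus). Capitals mark CACGTG (an E-box form that some basic helix-loop-helix proteins bind) in Bmp4 and GGCGCC (the core of the BMP response element bound by Smads) in Id2.
Bmp4: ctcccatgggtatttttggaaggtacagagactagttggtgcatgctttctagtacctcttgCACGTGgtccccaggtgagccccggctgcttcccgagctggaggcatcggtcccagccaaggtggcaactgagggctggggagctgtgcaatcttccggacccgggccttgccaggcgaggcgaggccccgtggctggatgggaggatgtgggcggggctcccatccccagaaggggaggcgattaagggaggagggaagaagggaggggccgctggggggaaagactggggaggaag
Bmp8b: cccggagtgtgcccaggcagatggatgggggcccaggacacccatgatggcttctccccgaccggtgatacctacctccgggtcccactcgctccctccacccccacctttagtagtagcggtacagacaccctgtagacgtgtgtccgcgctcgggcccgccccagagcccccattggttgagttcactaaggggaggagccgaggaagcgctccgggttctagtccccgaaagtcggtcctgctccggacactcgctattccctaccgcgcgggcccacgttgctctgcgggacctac
Id2: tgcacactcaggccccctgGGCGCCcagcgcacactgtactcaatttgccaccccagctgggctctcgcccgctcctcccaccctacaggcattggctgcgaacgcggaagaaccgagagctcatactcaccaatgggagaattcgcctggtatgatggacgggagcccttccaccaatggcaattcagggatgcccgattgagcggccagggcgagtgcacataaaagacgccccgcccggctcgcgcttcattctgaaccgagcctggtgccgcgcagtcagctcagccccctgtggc
Id3: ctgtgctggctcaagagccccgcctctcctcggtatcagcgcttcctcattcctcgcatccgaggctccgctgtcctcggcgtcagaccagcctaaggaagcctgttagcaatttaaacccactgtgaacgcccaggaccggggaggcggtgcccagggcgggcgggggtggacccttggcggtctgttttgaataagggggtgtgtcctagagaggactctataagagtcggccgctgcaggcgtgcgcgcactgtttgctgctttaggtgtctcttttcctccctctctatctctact

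A search of both strands covered those motifs, which do not overlap each other in sequence, and CCATNTT, the core site of YY1, a DNA-binding partner of INO80. The table held windows for 8 of the 9 genes, all but Id1. CACGTG was found at position -188 of Bmp4. GGCGCC was found at -198 of Bmpr1a, at -231 of Id2, and in 2 overlapping windows of Smad5 out of its 3. No match to any of the 3 motifs was found in the windows of Bmp8b, Id3, Smad1 or Smad6. Over all 32851 promoter windows of the same length, 7.15% hold CACGTG, 11.9% hold GGCGCC and 16.1% hold CCATNTT, so such matches are common and are given only as a description.

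The probe sequences of Bmp4 and Id3 are shown because each gene is read by a single sequence on this array. The Bmp4 probe lies at chr14:41704207-41704266 (minus strand) and the Id3 probe at chr4:135522597-135522771 (plus strand), both on build mm7 as the scanner files give it. The Id3 probe is 60 bases long and spans 175 bases of the genome, so its match holds a gap.
Bmp4 probe: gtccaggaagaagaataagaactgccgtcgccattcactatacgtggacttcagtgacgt
Id3 probe: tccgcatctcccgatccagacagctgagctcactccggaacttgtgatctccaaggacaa

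Bmp4 RNA, which encodes the ligand that supports self-renewal in these cells, was low with 3 of the 4 siRNAs. Its level was 2.55 and 2.98 on the NT arrays, 0.22 and -0.04 after Ino80 siRNA, 0.53 and 0.49 after Ino80b siRNA, 0.46 and 0.28 after Ino80c siRNA, and 2.21 and 2.31 after Ino80e siRNA. The 6 arrays of the first 3 knockdowns lie far below NT, the Ino80e arrays lie just below NT, and no group overlaps another. The fold changes against NT were -2.68, -2.26, -2.40 and -0.50 in that order (± 0.18), which leaves 15.7%, 20.9%, 19.0% and 70.5% of the NT signal. With NT replicate 1 left out the Ino80e value was -0.72, and with NT replicate 2 left out it was -0.29.

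The processed signal of Bmp4 was 4954 and 6702 intensity units in NT, 1084 and 813 after Ino80 siRNA, 1120 and 977 after Ino80b siRNA, 919 and 961 after Ino80c siRNA, and 3335 and 3284 after Ino80e siRNA. Before scaling, the 6 arrays of the first 3 knockdowns again lie below the NT and Ino80e arrays, but those 3 groups overlap each other. The sequence is printed as 10 spots on each array, which show how exactly an array reads it. Among those spots the coefficient of variation was 3.74% to 6.16% per array, and the SD was 0.054 to 0.0909 on the log2 scale. These spots are readings of the same sample and not replicates of a condition. Within the third slide Bmp4 was lower after Ino80c than after Ino80e siRNA by a log2 difference of -1.89 ± 0.18, a level 3.71-fold lower.

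**Figure D1:**
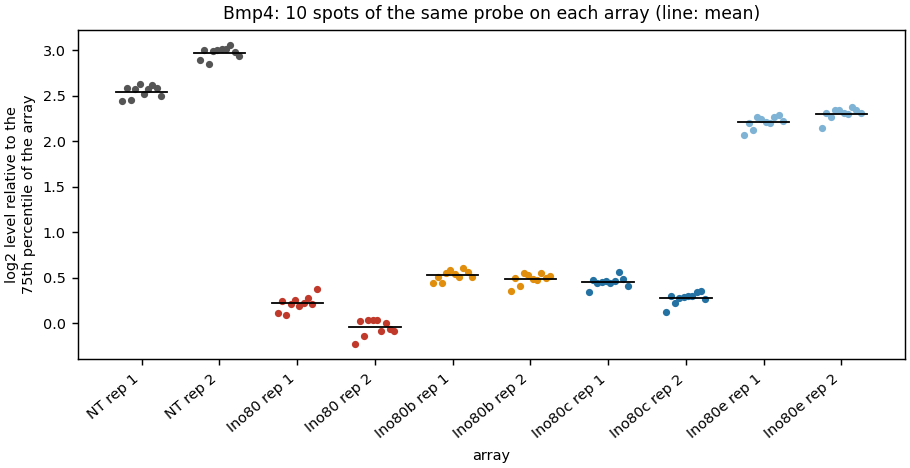
Level of Bmp4 (vertical axis, log2 relative to the 75th percentile of the array) at each of its 10 spots on each of the 10 arrays (horizontal axis). Points are spots and lines are means; the spots of an array stay close together, the Ino80, Ino80b and Ino80c arrays sit between -0.04 and 0.53, and the NT and Ino80e arrays sit between 2.21 and 2.98.

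Bmp8b, a ligand best known from germ cell formation, moved in the opposite direction from Bmp4. Its probe (chr4:122569912-122569968, mm7, plus strand) read -2.63 and -2.54 in NT, -0.89 and -0.93 after Ino80 siRNA, -1.51 and -1.33 after Ino80b siRNA, -1.23 and -1.24 after Ino80c siRNA, and -1.75 and -1.60 after Ino80e siRNA. All 8 knockdown arrays lie above both NT arrays, and the 5 groups do not overlap. The fold changes against NT were 1.68, 1.17, 1.35 and 0.91 (± 0.13), or 3.20, 2.24, 2.55 and 1.88 times the NT signal. Within slides, Bmp8b stood 0.51 ± 0.13 higher with Ino80 than after Ino80b siRNA, and 0.44 ± 0.13 higher with Ino80c than after Ino80e siRNA. In the authors' deposited table, which keeps the background in the signal, the values against NT were smaller at 1.30, 0.77, 0.85 and 0.51.

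The paralog Bmp8a, whose transcript is close to that of Bmp8b in sequence, is read by a probe of its own. Its level differed more between replicates than between groups: -1.24 and -2.08 in NT, -1.42 and -2.36 after Ino80 siRNA, -1.31 and -1.93 after Ino80b siRNA, -1.20 and -1.91 after Ino80c siRNA, and -1.67 and -2.33 after Ino80e siRNA. Its fold changes were between -0.34 and 0.10 (± 0.46), with adjusted p from 0.657 to 0.966 against NT (limma). Whether the Bmp8b probe also binds Bmp8a RNA was not tested, so the Bmp8b values carry that uncertainty.

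Bmpr1a encodes the type I receptor for BMP2 and BMP4. Its brighter probe (chr14:31844499-31844558, mm7) read 0.53 and 0.01 in NT, 0.67 and 1.02 after Ino80 siRNA, 0.72 and 0.67 after Ino80b siRNA, 0.84 and 0.83 after Ino80c siRNA, and 0.62 and 0.61 after Ino80e siRNA. The knockdown arrays all lie above NT, but the NT arrays differ from each other by about as much as the groups do. The fold changes were 0.57, 0.42, 0.57 and 0.35 (± 0.20). The second probe (chr14:31847850-31847909) gave -0.24, -0.54, -0.18 and -0.48 (± 0.21), so the probes disagree in sign in every knockdown. Averaged over both probes the values were 0.16, -0.06, 0.19 and -0.07.

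Smad1 and Smad5, which carry the signal from the receptor, showed the same split between probes. The brighter Smad1 probe (chr8:77879742-77879798, mm7) read 1.26 and 1.11 in NT, 1.76 and 2.01 after Ino80 siRNA, 1.62 and 1.65 after Ino80b siRNA, 1.87 and 1.52 after Ino80c siRNA, and 1.53 and 1.53 after Ino80e siRNA. The knockdown arrays lie above both NT arrays and overlap among themselves. The fold changes were 0.70, 0.45, 0.51 and 0.34 (± 0.16), whereas the other Smad1 probe gave -0.08, -0.34, -0.19 and -0.38 (± 0.18).

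The brightest Smad5 probe (chr13:55833898-55833957, mm7) read 1.37 and 1.04 in NT, 1.60 and 1.79 after Ino80 siRNA, 1.78 and 1.83 after Ino80b siRNA, 1.91 and 1.81 after Ino80c siRNA, and 1.76 and 1.83 after Ino80e siRNA. The knockdown groups overlap each other and lie above NT. Its fold changes were 0.48, 0.60, 0.65 and 0.59 (± 0.15). The second probe gave 0.39, 0.20, 0.36 and 0.15 (± 0.17) and the third gave -0.06, -0.13, 0.01 and -0.45 (± 0.19). Averaged over the probes, Smad5 stood at 0.27, 0.22, 0.34 and 0.09 and Smad1 at 0.31, 0.06, 0.16 and -0.02. The higher readings of the receptor and of both Smads were thus those of the brightest probe of each gene, and the other probes read less or the opposite sign.

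Smad6 encodes an inhibitory Smad that BMP signalling itself induces. Its single probe (chr9:63982002-63982061, mm7) read -2.11 and -2.14 in NT, -2.24 and -2.63 after Ino80 siRNA, -2.29 and -2.60 after Ino80b siRNA, -2.40 and -2.59 after Ino80c siRNA, and -2.16 and -2.10 after Ino80e siRNA. The Ino80, Ino80b and Ino80c arrays lie below NT and overlap each other, and the Ino80e arrays fall around the NT arrays. The fold changes were -0.31, -0.32, -0.37 and -0.00 (± 0.18).

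**Figure D2:**
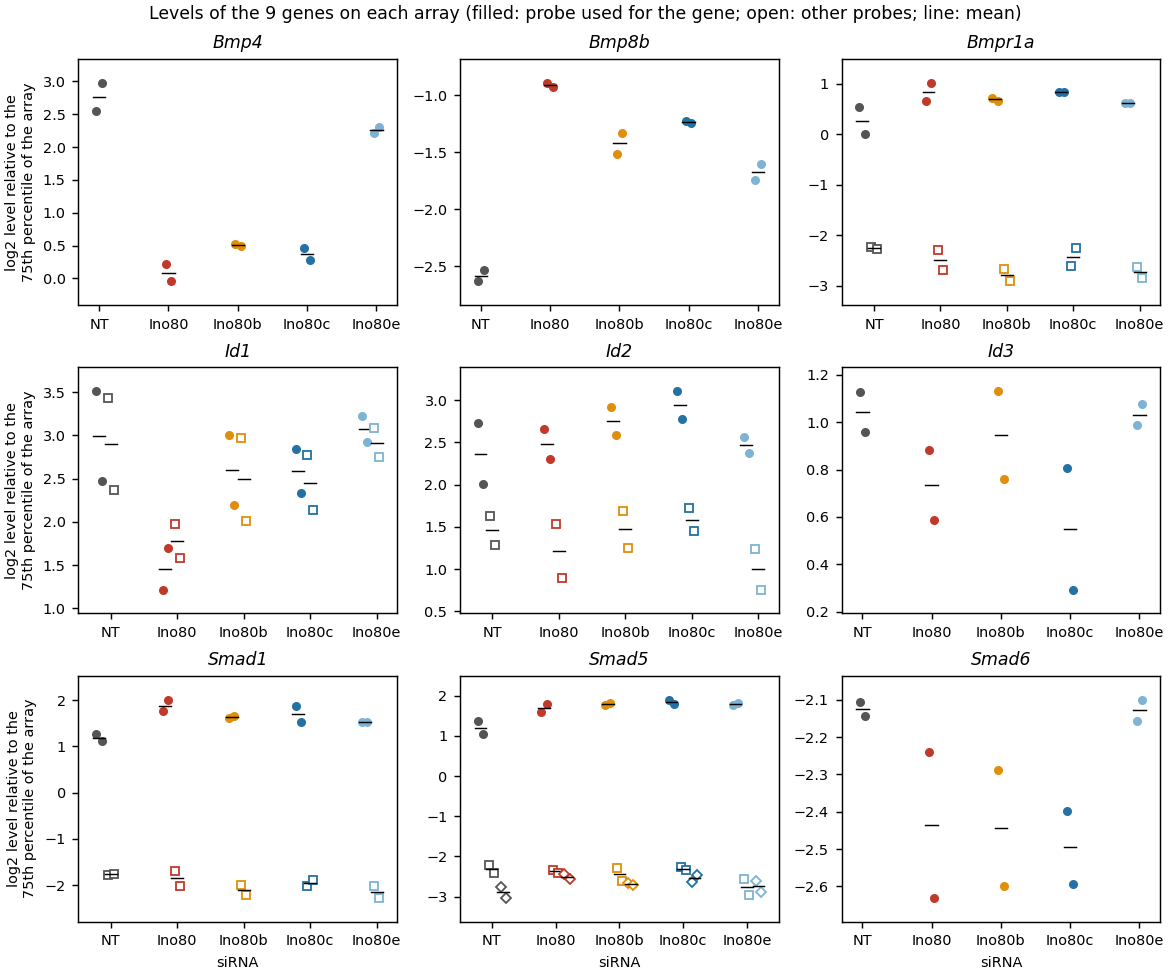
Level of each of the 9 genes (vertical axis, log2 relative to the 75th percentile of the array) on the 2 arrays of each siRNA group (horizontal axis). Filled points are the probe used for the gene, open squares and diamonds are its other probes, and lines are means; Bmp4 is low in 3 groups, Bmp8b is lowest in NT, and Id1 is lowest after Ino80 siRNA.

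Id1, the most BMP-responsive of the Id genes in many cell types, was lowest after Ino80 siRNA. The probe used (chr2:152478167-152478226, mm7) read 3.51 and 2.47 in NT, 1.22 and 1.70 after Ino80 siRNA, 3.01 and 2.19 after Ino80b siRNA, 2.85 and 2.33 after Ino80c siRNA, and 3.23 and 2.92 after Ino80e siRNA. The Ino80 arrays lie below every other array, and the other 4 groups overlap. The fold changes against NT were -1.53, -0.39, -0.40 and 0.09 (± 0.42), and Ino80 minus Ino80b, within a slide, was -1.14 ± 0.42. Without NT replicate 1 the Ino80 value was -1.01, and without NT replicate 2 it was -2.05.

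The second Id1 probe (chr2:152478157-152478216) shares 50 of its 60 bases with the first and gave -1.12, -0.41, -0.45 and 0.01 (± 0.46). The first probe read 0.03 to 0.20 above the second on 9 of the 10 arrays. On Ino80 replicate 1 it read 0.76 below it, at 1.22 against 1.98. By either probe the Ino80 arrays stay below both NT arrays, and by the second probe they also stay below all arrays of the other knockdowns.

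Id2 did not follow Id1. Its brighter probe (chr12:22930541-22930600, mm7) read 2.72 and 2.01 in NT, 2.66 and 2.31 after Ino80 siRNA, 2.92 and 2.59 after Ino80b siRNA, 3.1 and 2.77 after Ino80c siRNA, and 2.57 and 2.38 after Ino80e siRNA. The Ino80c arrays lie above NT and the other knockdowns overlap it. The fold changes were 0.11, 0.39, 0.57 and 0.10 (± 0.27), against -0.24, 0.01, 0.13 and -0.46 (± 0.30) by the second probe.

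Id3 varied within a narrow range. Its probe, printed above, read 1.13 and 0.96 in NT, 0.88 and 0.59 after Ino80 siRNA, 1.13 and 0.76 after Ino80b siRNA, 0.81 and 0.29 after Ino80c siRNA, and 0.99 and 1.08 after Ino80e siRNA. The Ino80 and Ino80c arrays lie below NT, while the Ino80b and Ino80e arrays overlap it. The fold changes were -0.31, -0.10, -0.49 and -0.01 (± 0.22), and Ino80c minus Ino80e, within a slide, was -0.48 ± 0.22. The 3 Id genes thus did not read alike, though none of them was called in any comparison. Id1 was low after Ino80 siRNA, and Id3 lay slightly below NT after Ino80 and Ino80c siRNA. Id2 lay above NT after Ino80c siRNA by its brighter probe alone. Differences between the 3 genes were not tested.

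**Figure D3:**
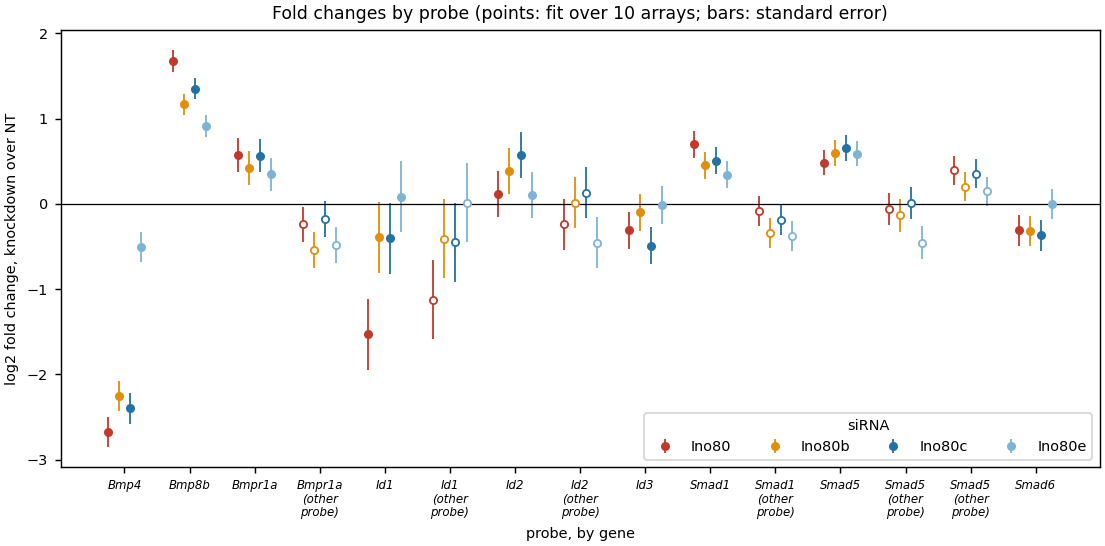
Log2 fold change of each of the 15 probes against NT (vertical axis), by gene (horizontal axis) and siRNA (colour), with the standard error as bars. Filled points are the probe used for the gene and open points its other probes; Bmp4 spans -2.68 to -0.50 and Bmp8b 0.91 to 1.68, and the second probes of Bmpr1a and Smad1 lie below 0 where the first lie above it.

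At an adjusted p under 0.05 over all 20662 genes tested, 3 of the 9 genes were called after Ino80 siRNA (Bmp8b and Smad1 higher, Bmp4 lower), where 12.4% of all genes were (7.63% higher, 4.78% lower). With Ino80b siRNA 2 were called (Bmp8b higher, Bmp4 lower), against 6.49% of all genes (3.89% higher, 2.6% lower). With Ino80c siRNA 3 were called (Bmp8b and Smad5 higher, Bmp4 lower), against 6.34% (4.83% higher, 1.51% lower). With Ino80e siRNA none was called by limma, against 0.00484% (1 gene), although 3 of the 9 and 5874 of all genes (28.4%) had an unadjusted p under 0.05. These comparisons share the NT arrays, and nothing is read from the counts because the genes were chosen on them.

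Counted by arrays that do not overlap, 4 of the 9 genes lay above both NT arrays after Ino80 siRNA (35.3% of all genes did) and 4 below (18.7%). After Ino80b siRNA 4 lay above (37.3% of all genes) and 2 below (21.2%), and after Ino80c siRNA 5 lay above (44.6%) and 3 below (15.9%). After Ino80e siRNA the same 4 as after Ino80 siRNA (Bmp8b, Bmpr1a, Smad1 and Smad5) lay above (40.4%), and Bmp4 lay below (17.4%). Within the second slide, Bmp8b and Smad1 lay higher after Ino80 than after Ino80b siRNA (20.8% of all genes) and Bmp4 and Id1 lower (19.8%). Within the third slide, Bmp8b, Bmpr1a and Id2 lay higher after Ino80c than after Ino80e siRNA (26.5%), and Bmp4, Id1, Id3 and Smad6 lower (19.5%).

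Between the groups on the same slide, limma called none of the 9 genes for Ino80 against Ino80b (0.0678% of all genes, with 3 of the 9, and 8.95% of all genes, at an unadjusted p under 0.05). It called only Bmp4, lower after Ino80c siRNA, for Ino80c against Ino80e (0.0339% of all genes, 0.0194% lower). Bmp4 alone had all 8 knockdown arrays below both NT arrays, as did 7.62% of all genes. Bmp8b, Bmpr1a, Smad1 and Smad5 had all 8 above, as did 19.1% of all genes. The median fold change of the 9 genes was 0.11, 0.39, 0.51 and 0.10, beside the medians of all genes given above.

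The rest of the pathway was taken from a list of 81 ligands, receptors, Smads, antagonists, regulators, targets and Id partners, of which 72 were tested. With Ino80 siRNA 13 of the 72 passed (5 higher and 8 lower), after Ino80b siRNA 6 (1 higher and 5 lower), after Ino80c siRNA 4 (2 higher and 2 lower), and after Ino80e siRNA none. The shares of all genes were the 12.4%, 6.49%, 6.34% and 0.00484% above, beside 18.1%, 8.33%, 5.56% and 0% of the list. By direction, 6.94% of the list was higher and 11.1% lower after Ino80 siRNA, 1.39% and 6.94% after Ino80b siRNA, and 2.78% and 2.78% after Ino80c siRNA. With Ino80e siRNA 27 of the 72 had an unadjusted p under 0.05, as did 28.4% of all genes. In both comparisons within a slide none of the 72 passed in limma, with 9 (Ino80 against Ino80b) and 10 (Ino80c against Ino80e) at an unadjusted p under 0.05, beside 8.95% and 10.7% of all genes. The median fold change of the 72 was 0.10, 0.09, 0.18 and 0.08.

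Among the other ligands, 1 of 11 tested fell after Ino80b siRNA and 1 rose after Ino80c siRNA. Bmp6 read -2.75 and -2.50 in NT and -3.31 and -3.71 after Ino80b siRNA, a fall with a log2 fold change of -0.89 ± 0.19 (limma, adjusted p = 0.0432), and its second probe gave -0.80. Gdf7, a ligand of the BMP group known from the spinal cord, read -5.22 and -5.32 in NT and -4.37 and -4.40 after Ino80c siRNA, a rise of 0.88 ± 0.13 (adjusted p = 0.0252). In both genes the arrays of the knockdown stand clear of NT. Gdf7 differed from NT by as much after Ino80e siRNA (0.87 ± 0.13), where it did not pass (adjusted p = 0.0705). Bmp7 gave 0.14 to 0.48 (± 0.39), or 0.03 to 0.44 by its second probe, and did not pass, and the Bmp2 probe was above background on 3 of the 10 arrays and was not tested.

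Of the 11 receptors and co-receptors, Bmpr2 rose and Eng fell after Ino80 siRNA, and no other passed in a comparison with NT. Bmpr2, the type II receptor that partners Bmpr1a, rose by 0.63 ± 0.14 (adjusted p = 0.0342). Its values with the other siRNAs were 0.57, 0.61 and 0.60, with adjusted p of 0.0579, 0.0516 and 0.0864. As with Bmpr1a, the other probes of Bmpr2 gave less or the opposite sign. They stood at 0.22 and 0.34 after Ino80 siRNA, 0.08 and 0.44 after Ino80b siRNA, 0.03 and 0.16 after Ino80c siRNA, and -0.17 and -0.46 after Ino80e siRNA. Eng, which encodes the co-receptor endoglin, read -0.07 and 0.30 in NT and -0.77 and -1.35 after Ino80 siRNA (-1.17 ± 0.23, adjusted p = 0.0221). Acvr1, Acvr2a and Acvr2b, further receptors of the family, did not pass, with values between -0.47 and 0.48 by the probes used. A second Acvr2a probe read 0.10, -0.38, -0.39 and -0.84 (± 0.26).

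None of the 5 other Smads passed. Smad4, the common partner of Smad1 and Smad5, stood at 0.36 to 0.49 (± 0.16) by its brighter probe and at -0.30 to 0.19 (± 0.16) by its other. Smad7, the other inhibitory Smad, stood at 0.08 to 0.23 (± 0.16). Smad9, the third Smad of the BMP branch, was not well above background on either NT array by its brighter probe. It was so on both Ino80e arrays, through which alone it passed the filter, and where it was at least 6.71-fold higher. The second Smad9 probe was well above background on 1 Ino80, 1 Ino80c and 1 Ino80e array. It gave 0.86 ± 0.73 after Ino80e siRNA and 1.55 ± 0.73 after Ino80c siRNA, so it did not single out Ino80e. No test is read from Smad9.

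Among 17 tested antagonists and processing factors, 4 passed after Ino80 siRNA, 1 after Ino80b siRNA and none with the others. Bmper encodes a secreted BMP-binding protein, and read -2.95 and -3.11 in NT, -4.78 and -5.44 after Ino80 siRNA, -4.66 and -4.49 after Ino80b siRNA, -3.05 and -2.97 after Ino80c siRNA, and -2.63 and -2.46 after Ino80e siRNA. The arrays of the second slide lie below all others. It fell with a log2 fold change of -2.07 ± 0.22 after Ino80 siRNA (limma, adjusted p = 0.00407) and of -1.54 ± 0.22 after Ino80b siRNA (adjusted p = 0.0185). With Ino80c and Ino80e siRNA it stood at 0.02 and 0.49. The second Bmper probe was at least 3.27-fold lower after Ino80 siRNA and at least 2.58-fold lower after Ino80b siRNA, where it was not well above background.

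Grem1, a secreted BMP antagonist, was well above background only in NT, through which alone it passed the filter, and was at least 1.55-fold lower after Ino80 siRNA. Nothing is read from its call, and without it 12 of the pathway genes passed after Ino80 siRNA, 7 of them lower. Dand5 and Nbl1, antagonists of the same family, rose after Ino80 siRNA by 0.72 ± 0.17 (adjusted p = 0.0373) and 0.61 ± 0.14 (adjusted p = 0.0335). Noggin (Nog), the best-known BMP antagonist, stood at 0.33, 0.49, 1.02 and 0.50 (± 0.37) and did not pass.

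Of 14 intracellular regulators, 3 fell after Ino80 siRNA, 2 after Ino80b siRNA and 1 after Ino80c siRNA, and none rose. Tob1, which binds and restrains BMP-activated Smads, read -0.63 and -0.26 in NT, -1.48 and -1.69 after Ino80 siRNA, -1.54 and -1.67 after Ino80b siRNA, -1.69 and -1.5 after Ino80c siRNA, and -1.13 and -1.15 after Ino80e siRNA. All knockdown arrays lie below NT. It fell with log2 fold changes of -1.14, -1.16 and -1.15 (± 0.17) with the first 3 siRNAs (limma, adjusted p = 0.00955, 0.0186 and 0.0244). With Ino80e siRNA it stood at -0.69 (adjusted p = 0.0864). Tgif1, a Smad corepressor, fell with a log2 fold change of -0.77 ± 0.16 after Ino80 siRNA (adjusted p = 0.0249) and -0.89 ± 0.16 after Ino80b siRNA (adjusted p = 0.0291). Zfp423, a zinc finger partner of BMP Smads, fell with a log2 fold change of -1.69 ± 0.31 after Ino80 siRNA (adjusted p = 0.0182), and its second probe gave -1.66.

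Among 11 tested BMP targets, Tbx3, a T-box factor of the pluripotency network, read 3.03 and 3.26 in NT, 0.23 and 0.97 after Ino80 siRNA, 1.03 and 1.48 after Ino80b siRNA, 1.05 and 1.56 after Ino80c siRNA, and 2.81 and 3.31 after Ino80e siRNA. As with Bmp4, the arrays of the first 3 knockdowns lie below NT. The Ino80e arrays overlap NT here, whereas for Bmp4 they lie just below it. Tbx3 fell with log2 fold changes of -2.55, -1.89 and -1.85 (± 0.32) with Ino80, Ino80b and Ino80c siRNA (limma, adjusted p = 0.00608, 0.0255 and 0.0287). A second Tbx3 probe was above background only in NT, at least 1.38-, 1.09-, 1.13- and 1.12-fold higher there than in the 4 knockdowns. Within the third slide Ino80c minus Ino80e was -1.76 ± 0.32 and did not pass (adjusted p = 0.11).

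Gata2, a trophectoderm and blood factor, fell with a log2 fold change of -1.01 ± 0.19 after Ino80 siRNA (adjusted p = 0.0188), and its second probe gave -1.33. Hey1, a target of both BMP and Notch signals, rose by 0.98 ± 0.24 after Ino80 siRNA (adjusted p = 0.0433) and by 1.07 ± 0.24 after Ino80b siRNA (adjusted p = 0.0474). Targets thus passed in both directions. Id4, the remaining Id gene, stood at -0.62, 0.35, -0.43 and -0.15 (± 0.21) and did not pass (adjusted p = 0.0925 to 0.676). The second Id4 probe, also above background on all arrays, read lower in 3 groups, at -1.06, 0.09, -1.0 and -0.87 (± 0.26). Of the 3 E proteins that Id proteins bind, Tcf12 rose after Ino80 siRNA by 0.96 ± 0.19 (adjusted p = 0.0232) and after Ino80c siRNA by 0.95 ± 0.19 (adjusted p = 0.0381). Its other probes gave 0.33 and 0.52 after Ino80 siRNA, and -0.11 and 0.51 after Ino80c siRNA.

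**Figure D4:**
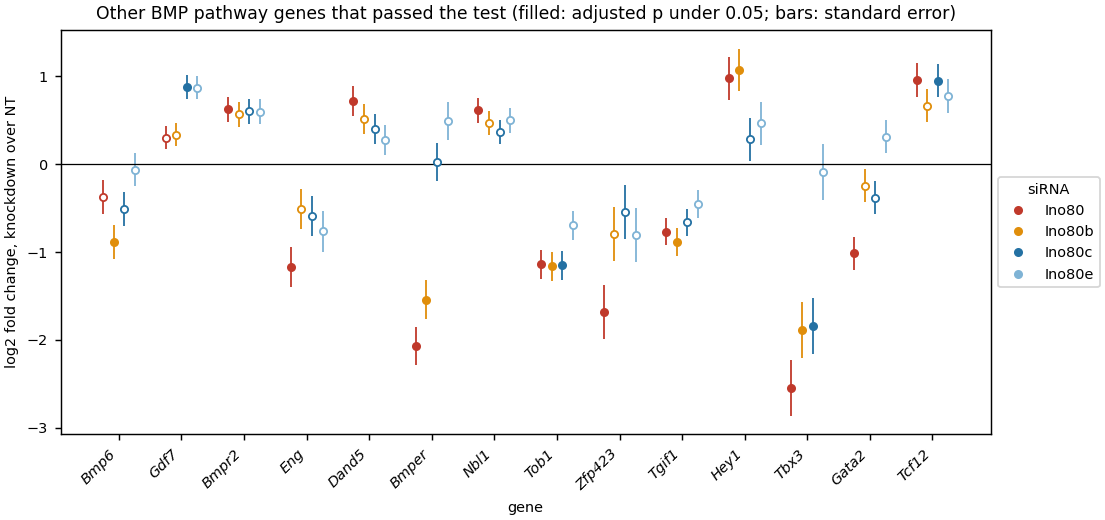
Log2 fold change against NT (vertical axis) of the pathway genes that passed in at least 1 comparison (horizontal axis), by siRNA (colour), with the standard error as bars; filled points have an adjusted p under 0.05. Grem1, which was not above background in the knockdowns, is not drawn; Tbx3 and Bmper hold the lowest values, -2.55 and -2.07 after Ino80 siRNA, and Hey1 the highest.

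The number of pathway genes that passed depended on single arrays. With Ino80 siRNA it was 3 without NT replicate 2 (Bmper, Tob1 and Tbx3) and 2 without Ino80 replicate 2 (Bmper and Tbx3), and 7 to 12 when any of the other arrays was left out. With Ino80b siRNA it was 0 without NT replicate 2 or either Ino80b array, and after Ino80c siRNA it was 0 without NT replicate 2, either Ino80c array or either Ino80e array.

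The genes most like each member over the 10 arrays, by Pearson's r of the log2 level among all genes tested, are given as a description. They were Slc29a1 (0.995), Mlh3 (0.987) and Parvb (0.984) for Bmp4. For Bmp8b they were Syt12 (0.982), Emb (0.98) and 4930403J07Rik (0.977). For Id1 they were Etaa1 (0.968), Ddefl1 (0.952) and Ackr3 (0.946). For Id2 they were Pafah1b2 (0.963), Map2k4 (0.962) and Krt15 (0.959), and for Id3 Ocel1 (0.923), Sigirr (0.91) and Yrdc (0.907). The best match was closer for the ligands and Id1 than for Id3. The arrays fall into 5 groups, so these values mostly reflect the group means, and each is the highest of all genes tested.

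Markers of cell types also differed between the groups, and their part in the results was not tested. The summed level of 9 tested embryonic stem cell markers, in units of the 75th percentile, was 639 to 678 in NT, 423 to 518 after Ino80 siRNA, 515 to 604 after Ino80b siRNA, 594 to 606 after Ino80c siRNA and 695 to 777 after Ino80e siRNA. All these markers were well above background on every array, and 5, 4, 3 and 0 of them passed as lower against NT. The sum is of linear levels, so Dppa5a and Zfp42 weigh most (mean log2 levels of 8.45 and 6.99 in NT). After Ino80e siRNA these genes stood at 0.23 and 0.41 against NT, while Pou5f1 and Utf1 stood at -0.49 and -0.84, and none of the 4 passed. For 9 primitive endoderm markers the sums were 6.53 in NT, 1.76 to 1.95, 2.82 to 3.36, 3.90 to 4.55 and 6.29 to 6.93, and 9, 7, 2 and 0 of them passed as lower. Bmp4 was low in the groups where these sums were low, but not in the same order. Its mean level was lower after Ino80c siRNA (0.37) than after Ino80b siRNA (0.51), while the primitive endoderm sum was higher after Ino80c siRNA. In bulk RNA, fewer cells of a type and less RNA per cell cannot be told apart.

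For 7 trophectoderm markers the sums were 19.9 to 24.6 in NT and 48.4 to 63.4, 31.5 to 37.5, 25.8 to 26.0 and 27.1 to 36.0 in the 4 knockdowns in the same order, with 3, 0, 1 and 0 passing as higher. For 10 fibroblast markers they were 30.4 to 32.1 in NT and 37.0 to 39.1, 25 to 30.8, 26.4 to 31.3 and 21.8 to 24.6, with 4, 2, 3 and 0 passing as higher. Acta2 weighs most in the fibroblast sum of NT (mean log2 level of 4.50) and did not pass in any knockdown. After Ino80 siRNA Tagln weighs most, at 4.24 against 2.82 in NT, while Acta2 stood at 4.11. Lum and Postn of the fibroblast list, Elf5 of the trophectoderm list and Pdgfra of the primitive endoderm list were not well above background in some groups. The trophectoderm sum was highest, and the Id1 level lowest, after Ino80 siRNA. That sum is mostly Krt8 and Krt18, at mean log2 levels of 4.07 and 5.16 there. Besides these keratins only Cdx2 passed as higher after Ino80 siRNA, at a level of -2.89. Eomes, Gata3, Hand1 and Tfap2c did not pass, with log2 fold changes of 0.29, 0.26, -0.38 and -0.04.

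**Figure D5:**
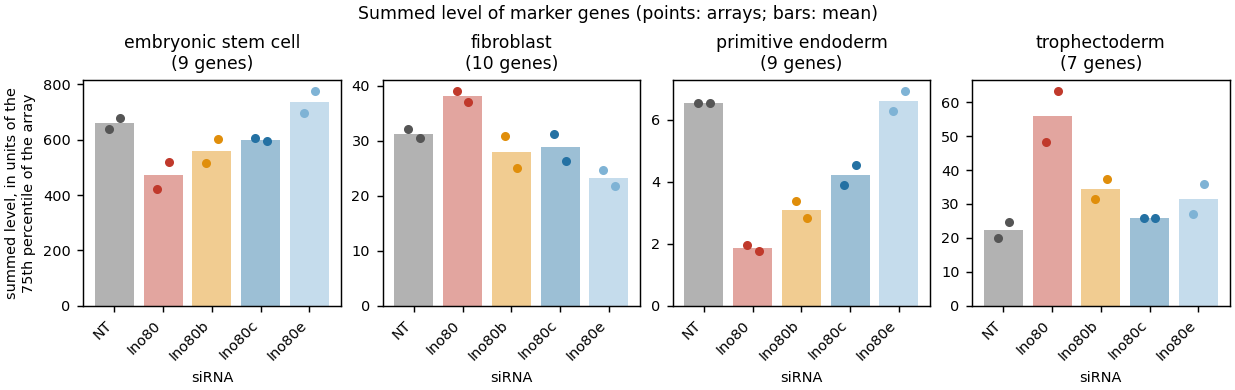
Summed level of 4 marker lists (vertical axes, in units of the 75th percentile of the array) for each siRNA group (horizontal axis); points are arrays and bars are means of 2. The primitive endoderm sum is 6.53 on both NT arrays and 1.76 to 1.95 after Ino80 siRNA. The trophectoderm sum, mostly Krt8 and Krt18, is highest after Ino80 siRNA.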

How the data were processed

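RNA of 10 samples was hybridised to Agilent 4x44K arrays, read in 1 colour (green channel, although the labels name Cy5). Per the file headers, Feature Extraction 9.5.3.1 made each deposited intensity: a processed signal with background subtracted and spatial trend removed, but no scaling across arrays. The log2 values of the authors' deposited table equal the log2 mean signal plus 1 constant per array (column medians 6.76 to 6.87); the origin of that scaling is unknown here, and the table served as an alternative. The number of arrays limits the precision.

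Removing control spots and outlier-flagged spots left 41143 probes. Spots of a probe were averaged, and the 75th percentile of each array (664 to 930 intensity units) was subtracted from log2 signals. A probe was kept (29586 were) if both arrays of some group read it well above background, and the brightest kept probe represented a gene (20662 genes). No spot was saturated. Names came from the accession through the RefSeq table (GRCm38.p6, names only) for 22951 probes, and otherwise from the array design. "At least N-fold" sets the brighter group's mean against the mean, over the arrays of a group not well above background, of the dimmest reliably detected probe's signal (or this probe's own if higher).

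The model was limma's lmFit with eBayes (limma 3.58.1, R 4.3.3) over all arrays, and group was its only term (5 residual and 2.23 prior degrees of freedom). P-values are two-sided and adjusted by Benjamini-Hochberg over all genes of a comparison, and ± is a standard error. Replicate numbers were not used to pair the samples. Deviations of same-numbered arrays correlated between groups at 0.004 to 0.321 across genes, and not every pair exceeded 0.1. For Bmp8a and both Id2 probes, replicate 1 read above replicate 2 in every group. Whether same-numbered arrays share an effect was not tested, and the standard errors would include it. The fit was also run on simulated data with independent noise and no slide or replicate effect, so that run says nothing of such effects.

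The 9 genes and all lists were chosen with earlier results of these data known. The text names every probe of the 9 genes, each listed pathway gene that passed (at most 25 per comparison by size), 11 pathway genes in any case (Bmp2, Bmp7, Bmpr2, Acvr1, Acvr2a, Acvr2b, Smad4, Smad7, Smad9, Id4 and Nog), and the 3 genes most like each of Bmp4, Bmp8b, Id1, Id2 and Id3. Bmp8a and the marker genes named in the text were singled out after their values were seen. Alternatives changed the background correction, normalization, probe filter, probe choice, prior, weights, replicate block and arrays.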

Additional observations from a re-analysis of the deposited data

Results flagged for a closer look

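The Bmp4 level differed between the Ino80c and Ino80e groups, which lie on the same slide: the log2 difference was -1.89, with 0.46 and 0.28 on the Ino80c arrays and 2.21 and 2.31 on the Ino80e arrays. The comparison was part of the choice of this gene, so it is a description.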

How the results depend on the processing

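The counts of called genes moved with the setting. Of 1080 fold changes of the 9 genes under alternatives, 990 stayed within the spread between replicates and 90 moved by more. No called value changed sign. Many of the 1080 could not move by construction, so the 990 do not measure stability. A fold change stays as it was when an array of another group is left out. It also stays with another prior, probe filter or replicate block, or with only the arrays compared. Against NT, with arrays kept, values not called changed sign in at least 1 alternative for Id2 after Ino80 siRNA, Bmpr1a after Ino80b siRNA, and Bmpr1a, Id1, Id2, Smad1 and Smad6 after Ino80e siRNA; where the cause is not the setting's own construction, it was not tested. Of the 9 genes, the number called with Ino80 siRNA (3) was 6 in the authors' table and with normexp, 5 with a trend and robust prior, and 0 with only the arrays of the groups compared. With only those arrays it was also 0 for Ino80b (2), Ino80c (3) and Ino80c against Ino80e (1), a fit with 2 residual degrees of freedom. For Ino80c it was 5 with normexp. For Ino80e (0) it was 2 in the authors' table, 3 with normexp, 1 with the replicate block, 2 with the trend and 1 with probes above background on all arrays. For Ino80c against Ino80e it was 0 without the probe filter. Calls over all genes moved with these settings: after Ino80e siRNA from 0.00484% to 24.8% with normexp, 9.27% with the replicate block, 8.65% with the trend, 5.36% in the authors' table and 2.65% with probes above background on all arrays, and after Ino80 siRNA from 12.4% to 23.7% with the replicate block and 3.33% with array weights. The Ino80 share was 18.1% in the authors' table, 18.6% with normexp and 18% with the trend. For Ino80b it was 16% with normexp and 17.6% with the replicate block. For Ino80c it was 20.6% and 18.2% in that order, 12.7% with the trend, 10.7% in the authors' table and 13.1% with probes above background on all arrays. For Ino80c against Ino80e it was 0.441% to 1.49% in the settings with pathway calls. Of the pathway genes, Ino80 (13) gave 3 with array weights, 7 without the filter, 21 with the replicate block and 0 with only its own arrays. Ino80b (6) gave 3, 2, 11 and 0 in that order, and 10 with normexp. Ino80c (4) gave 1, 0, 11 and 0, and 7 in the authors' table, 15 with normexp, 7 with the trend and 8 with probes above background on all arrays. Ino80e (0) gave 9 in the authors' table, 26 with normexp, 5 with the replicate block, 7 with the trend and 1 with probes above background on all arrays. Ino80c against Ino80e (0) gave 4 with array weights, 2 in the authors' table, 4 with normexp, 5 with the replicate block, 3 with the trend and 1 with probes above background on all arrays. Leaving out each array gave 2 to 5, 0 to 3, 0 to 4, 0 and 0 to 1 of the 9 genes, and 2 to 12, 0 to 10, 0 to 8, 0 and 0 pathway genes, for Ino80, Ino80b, Ino80c, Ino80e and Ino80c against Ino80e, where a lone array is assumed to vary like the other groups; Ino80 against Ino80b gave 0 throughout. The share of called genes that were higher was 60% for Ino80b against 38.0% in the authors' table; for Ino80c it was 76.1%, but 27.8% in that table and 54.1% after quantile normalization. The slide as a random block could not be fitted and was not run, since each slide is fixed by the groups it holds. Whether same-numbered arrays share an effect was not tested, so calls under the replicate block say nothing of the size of an effect.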
